A study of Mus musculus with 4 samples.

Results

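The Hedgehog pathway genes described here are Shh, Ptch1, Smo, Gli1, Gli2, Gli3, Hhip, Gas1 and Cdon, a list of 9 symbols drawn up with earlier results of these data known. All 9 were found, each on a single gene line, among 21828 genes analysed. RNA-seq was done on retinal cells of pHes1-EGFP transgenic mice (strain FVB/N in the labels), in which a fragment of the Hes1 promoter drives a destabilized EGFP. Dissociated, propidium iodide-stained retinal cells at postnatal day 1 (P1) and postnatal day 4 (P4) were sorted into EGFP-positive (pHes1_EPC) and EGFP-negative (pHes1_ENC) fractions, with no treatment. Each fraction at each age gave 1 library, 4 in all, and how many mice were pooled for it is not given in the sources used here. All 4 groups carry the transgene, so EGFP marks recent activity of a promoter fragment and not a cell type. The study describes EGFP in nearly all Müller glia of the postnatal retina of this line, and in Müller glia of the adult. The pHes1_ENCs are all remaining cells, and the study states that GFP was missing from peripheral retina in this line.

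In the canonical Hedgehog pathway a secreted ligand such as Shh binds the receptor Ptch1, which then stops inhibiting the membrane protein Smo, and Smo signalling lets Gli transcription factors activate their targets. Gli2 and Gli3 are the primary mediators, Gli3 largely as a repressor when ligand is absent, whereas Gli1 is itself induced and is widely used as a readout of the pathway. Ptch1 and Hhip are also induced by the pathway and restrain it by binding ligand, while Gas1 and Cdon are co-receptors that help present ligand to Ptch1. In the developing mouse retina Shh is known as a signal from ganglion cells that keeps progenitor cells dividing, and progenitors and Müller glia are the cells that respond to it.

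FPKM, as estimated by Cufflinks, is scaled by transcript length and library size, so levels of different genes can be set side by side. Each value comes with a Cufflinks 95% interval for that library, which covers counting and read assignment but no variation between mice or sorts. With 1 library in a group there is no test between groups, and every difference below is a description of these libraries. Differences are on the log2(FPKM + 1) scale, which pulls low genes toward 0, and a gene is counted as higher or lower when the difference passes 1 in size, that is 2-fold. The analysed genes reached an FPKM of at least 1 in 11458 to 12108 cases per library, and for strongly expressed genes (FPKM of 10 or more) the interval's median half-width was 6.08% to 6.36% of the value. In bulk samples such as these, fewer cells of a type and less RNA per cell cannot be told apart.

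The fractions were checked against marker lists. Of 10 Müller glia genes, 8 passed 2-fold toward pHes1_EPCs at each age. Their summed FPKM, pHes1_ENC value first, was 417 against 1426 at P1 and 160 against 2071 at P4. Of 10 retinal progenitor genes, 9 were higher at P1 and 10 at P4, with sums of 811 against 2894 for P1 and 175 against 1664 for P4. The 8 rod genes were mostly in pHes1_ENCs, with sums of 703 and 42.9 at P1, but reached 798 in pHes1_EPCs at P4, against 4158 in pHes1_ENCs. The sums of 12 ganglion cell genes were 132 against 43.9 at P1 and 24.7 against 17.4 at P4, in the same order. For 5 of the 7 listed amacrine genes that were found, the sums ran from 97.7 to 326. Pax6, also on the progenitor list, gave 127 of 135 in P1 pHes1_EPCs and 126 of 143 in P4 pHes1_EPCs. The amacrine genes other than Pax6 were lower in pHes1_EPCs, except Gad2 at P4 (2.78 in pHes1_ENCs against 5.43). For 5 bipolar genes the sums ran, mostly through Otx2, from 47.0 to 845. The 4 erythroid genes summed to 185 and 502 in pHes1_ENCs but to 0.568 and 6.65 in pHes1_EPCs. Sums stayed at 15.2 or less for 5 astrocyte genes, at 3.2 or less for 7 mesenchyme and pericyte genes, where Lum was listed at 0 in 3 libraries and Dcn in 2, and at 8.17 or less for 6 microglia genes. The 8 pigment epithelium genes summed to 2.54 to 12.5 in 3 libraries and to 53.4 in pHes1_EPCs at P4. The sum of 7 endothelial genes, 14.8 to 212, came mostly from Kdr and Cldn5, whereas Cdh5 and Emcn were listed at 0 at P4. The part of these cell types in the results below was not tested.

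Most of the 9 genes were higher in pHes1_EPCs. More than 2-fold higher were 7 of them at P1, where 6.1% of all genes were, and 7 at P4, where 9.85% were. None of the 9 was more than 2-fold lower, compared with 6.79% of all genes at P1 and 5.42% at P4. Counted over expressed genes alone (FPKM of 1 or more in at least 1 of the compared libraries), a set without Shh, the share called higher was 10.6% at P1 and 17.4% at P4, and the share called lower 11.8% and 9.56%. The median difference of the 9 genes was 1.74 at P1 and 2.48 at P4. Over all genes it was 0 at both ages, and over expressed genes 0.03 at P1 and 0.17 at P4. At P1 the exceptions were Shh and Smo, and at P4 they were Shh and Ptch1.

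**Figure D1:**
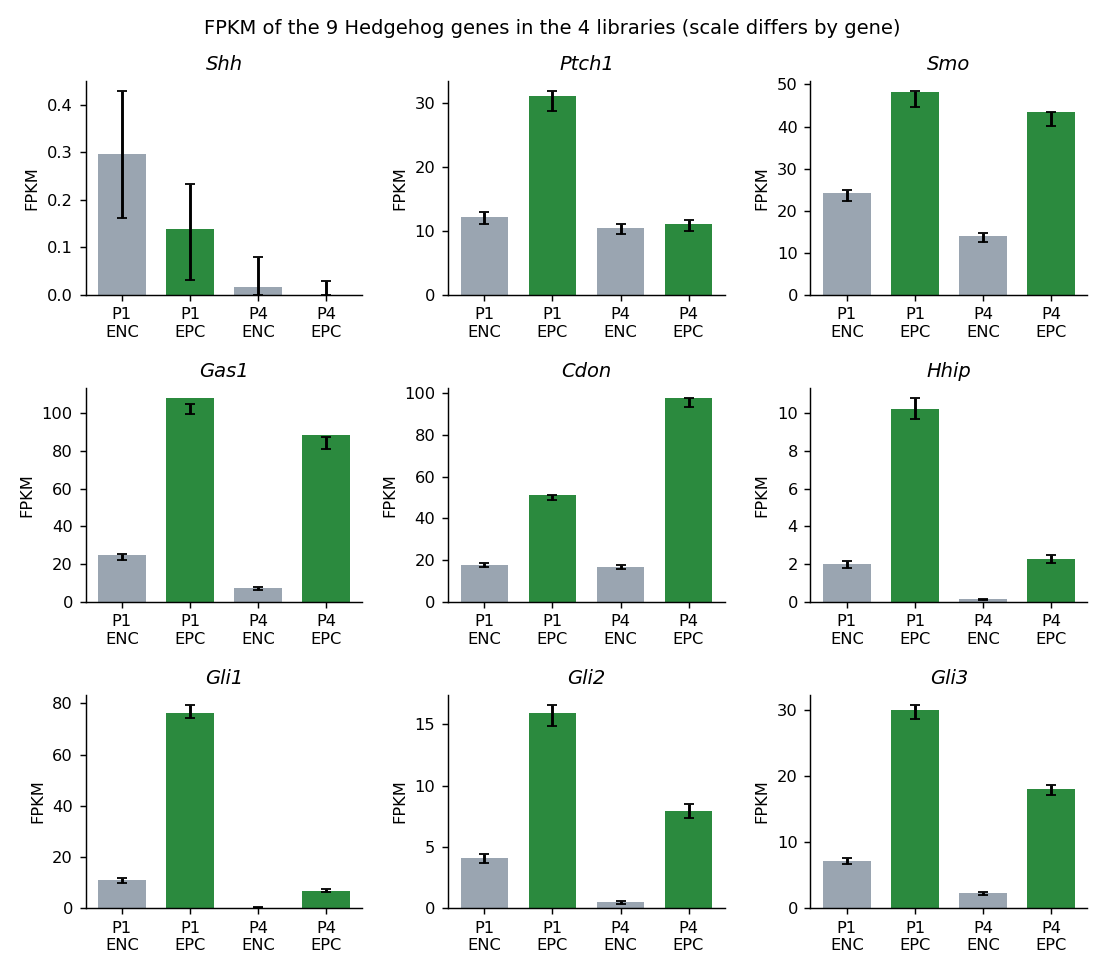
FPKM (vertical axis, a separate linear scale for each gene) of the 9 Hedgehog genes in the 4 libraries (horizontal axis), with grey bars for pHes1_ENCs (ENC), green bars for pHes1_EPCs (EPC), and black lines for the Cufflinks 95% interval of the library. The P1 pHes1_EPC bar is the tallest for Ptch1, Smo, Gas1, Hhip, Gli1, Gli2 and Gli3, the P4 pHes1_EPC bar for Cdon and the P1 pHes1_ENC bar for Shh; the Gas1 bars of both pHes1_EPC libraries end above their own interval, as Cufflinks gave them.

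Shh, the ligand, lies on chromosome 5 (28783380 to 28793641 in NCBI37/mm9, the build of the gene tables). It was barely detected. At P1 the FPKM was 0.295 in pHes1_ENCs (interval 0.162 to 0.428) against 0.139 in pHes1_EPCs (0.0309 to 0.232). At P4 it was 0.0159 in pHes1_ENCs (0 to 0.0797), and it was listed at 0 in pHes1_EPCs, with an upper bound of 0.0289. The order of the levels was thus P1 pHes1_ENC, P1 pHes1_EPC, P4 pHes1_ENC and P4 pHes1_EPC, but each library's interval overlapped that of the next. The P1 ratio of pHes1_ENCs to pHes1_EPCs was 2.12, with a range of 0.700 to 13.8, so a difference between the fractions was not detectable at this depth. Within each fraction the P1 and P4 intervals did not overlap. Of the 12 ganglion cell genes, 8 were more than 2-fold lower at P4 in pHes1_ENCs, where 5.94% of all genes were, and 4 in pHes1_EPCs, where 2.57% were, and their part in the Shh values was not tested. The gene line of Shh overlaps that of 9530036O11Rik by 118 bases, but the latter was at an FPKM of 0.00177 or less.

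The other ligands of the family were also low. For Ihh the FPKM was 0.406 in pHes1_ENCs against 0.170 in pHes1_EPCs at P1, and 0.140 against 0.206 at P4. For Dhh it was 0.202 against 0.264 at P1 and 1.63 against 1.07 at P4, the highest level of any of the 3 ligands.

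Ptch1, the ligand receptor, lies on chromosome 13 (63612841 to 63666828). The P1 pHes1_ENC library had an FPKM of 12.2 and the P1 pHes1_EPC library one of 31.0, which is 2.55 times as much (range 2.22 to 2.86, from the interval bounds). The P4 libraries were at 10.4 and 11.0, for a ratio of 1.05 (0.899 to 1.24). Only the P1 pHes1_EPC library stood out: the other 3 lay between 10.4 and 12.2, and P4 pHes1_EPC overlapped both P1 and P4 pHes1_ENC. Ptch1 was therefore higher in pHes1_EPCs at P1 (log2 difference 1.28) and level between the fractions at P4 (0.07), and the P4 value turned negative under 3 other scalings of the libraries, to -0.21 at the lowest.

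Smo, the signal transducer, lies on chromosome 6 (29685497 to 29711366). In pHes1_ENCs its FPKM was 24.3 at P1 and 13.9 at P4, and in pHes1_EPCs it was 48.3 and 43.4. Both pHes1_EPC libraries were above both pHes1_ENC libraries, and no interval overlapped the next in order. The ratio of the fractions was 1.98 (1.80 to 2.16) at P1, just short of the 2-fold mark, and 3.12 (2.74 to 3.45) at P4. The log2 differences were 0.96 and 1.58. Unlike Ptch1, Smo was nearly as high in pHes1_EPCs at P4 as at P1, with a P1 to P4 ratio of 1.11 (1.03 to 1.20). This log2 difference of -0.15 became -0.32 to -0.48 under 3 other scalings of the libraries. The FPKM of Smo over that of Ptch1 in the same library was 2.0 and 1.56 in P1 pHes1_ENCs and pHes1_EPCs, and 1.34 and 3.96 at P4.

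The co-receptors were the most abundant of the 9 genes in pHes1_EPCs at P1 and P4, apart from Gli1 at P1. Gas1, a membrane-anchored protein on chromosome 13 (60275766 to 60278896), reached an FPKM of 24.7 in pHes1_ENCs against 108 in pHes1_EPCs at P1. At P4 it was at 7.35 against 88.6. The fractions thus differed 4.39-fold at P1 (3.96 to 4.73) and 12.0-fold at P4 (10.2 to 13.6). On the log2 scale this came to 2.09 and 3.42. At P4 that was the largest difference of the 9 genes with a pseudocount of 1. Gli1 was above Gas1 with a pseudocount of 0.1 (4.25 against 3.57) and with none (4.68 against 3.59). It was also above Gas1 after rescaling to the same total (3.38 against 3.25). That rescaling multiplied FPKM by 2.69 to 3.6, so the pseudocount of 1 weighed less. Median-of-ratios scaling (2.51 against 3.23) and quantile normalization (2.5 against 3.04) left Gas1 above Gli1. Of 7786 genes with an FPKM of 10 or more in either P4 library, 110 (1.41%) had a larger difference than Gas1. Gas1 passed this filter through pHes1_EPCs alone, so this rank is a description only. Both pHes1_EPC values of Gas1 lie above their own Cufflinks interval (at P1 99.4 to 105, at P4 81.2 to 87.2), which were the only such cases among the 36 values of the 9 genes.

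Cdon, a co-receptor of the immunoglobulin family on chromosome 9 (35259661 to 35315237), followed another course. Its FPKM in pHes1_EPCs was 51.0 at P1 and 97.6 at P4, a P4 to P1 ratio of 1.91 (1.82 to 2.01). The log2 difference of 0.92 fell to between 0.56 and 0.75 under 3 other scalings of the libraries. In pHes1_ENCs the FPKM of Cdon was 17.8 and 16.7, and these intervals overlapped. Cdon was thus the only 1 of the 9 genes with its highest level at P4, and pHes1_EPCs exceeded pHes1_ENCs by a ratio of 2.86 (2.65 to 3.05) at P1 and of 5.85 (5.37 to 6.21) at P4. Gas1 was 2.12 times as high as Cdon in P1 pHes1_EPCs, whereas Cdon was 1.1 times as high as Gas1 in P4 pHes1_EPCs. The third co-receptor, Boc, was far less abundant, with 0.672 against 1.78 at P1 and 0.0837 against 1.69 at P4, pHes1_ENCs first. Gpc3, a glypican that binds ligand at the cell surface, was at 4.30 against 25.5 at P1 and at 1.39 against 17.9 at P4.

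Gli1, the target gene and activator, lies on chromosome 10 (126766938 to 126778635) and showed the largest FPKM ratios of the 9 genes, between the fractions and between the ages, leaving out Shh. At P1 the FPKM of Gli1 was 10.9 in pHes1_ENCs (10.1 to 11.7) against 76.3 in pHes1_EPCs (74.4 to 79.4). At P4 it was 0.272 in pHes1_ENCs (0.159 to 0.386) against 6.98 in pHes1_EPCs (6.37 to 7.59). No intervals overlapped, and the P1 pHes1_ENC level was above the P4 pHes1_EPC level. The ratio of the fractions was 6.99 (6.36 to 7.84) at P1 and 25.6 (16.5 to 47.8) at P4. On the log2 scale with the pseudocount the differences were 2.70 and 2.65, because the low P4 level of pHes1_ENCs is pulled up, and without a pseudocount the P4 difference was 4.68. At P1, 9 of 7649 genes with an FPKM of 10 or more in either fraction had a larger difference than Gli1. The gene line of Gli1 overlaps that of Arhgap9 by 62 bases, and Arhgap9 was at an FPKM of 0.0711 or less in each library.

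Hhip, the secreted and membrane-bound antagonist on chromosome 8 (82489750 to 82581907), resembled Gli1 at a lower level. At P1 it was at an FPKM of 1.98 in pHes1_ENCs against 10.2 in pHes1_EPCs, and at P4 at 0.119 against 2.26. The ratio of the fractions was 5.18 (4.47 to 6.04) at P1 and 19.0 (12.5 to 31.8) at P4. As with Gli1, the P1 pHes1_EPC library was the highest and the P4 pHes1_ENC library the lowest, but for Hhip the P4 pHes1_EPC and P1 pHes1_ENC intervals overlapped.

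Gli2, on chromosome 1 (120730638 to 120950196), had FPKM values of 4.07 in pHes1_ENCs against 15.9 in pHes1_EPCs at P1, and 0.507 against 7.98 at P4. Gli3, on chromosome 13 (15555556 to 15821858), was at 7.19 against 30.0 at P1 and at 2.32 against 18.1 at P4. For both genes the order was P1 pHes1_EPC, P4 pHes1_EPC, P1 pHes1_ENC and P4 pHes1_ENC, with no overlap between neighbours. Gli2 was 3.91 times as high in pHes1_EPCs as in pHes1_ENCs at P1 (3.39 to 4.46) and 15.7 times at P4 (12.0 to 21.5). For Gli3 these ratios were 4.17 (3.76 to 4.58) and 7.79 (6.75 to 8.93).

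The make-up of the Gli family differed between the ages. Together the 3 Gli genes summed to an FPKM of 22.2 in pHes1_ENCs against 122 in pHes1_EPCs at P1, and of 3.1 against 33.0 at P4. Gli1 made up 49.2% of this sum in pHes1_ENCs and 62.4% in pHes1_EPCs at P1, but 8.79% and 21.1% at P4. Gli3 made up 32.4% and 24.6% at P1, but 74.9% and 54.7% at P4, so the most abundant Gli transcript was Gli1 at P1 and Gli3 at P4 in both fractions. The ratio of Gli1 to Gli3 was 2.54 in P1 pHes1_EPCs and 0.386 in P4 pHes1_EPCs.

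**Figure D2:**
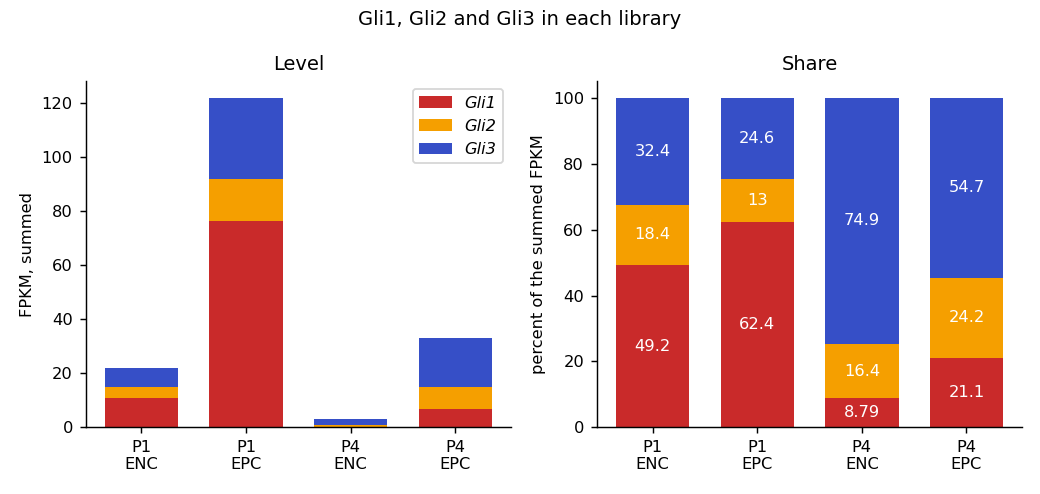
Summed FPKM (left) and percent of that sum (right) of Gli1, Gli2 and Gli3, on linear vertical axes that start at 0, for the 4 libraries on the horizontal axis (ENC, pHes1_ENC; EPC, pHes1_EPC). Gli1 takes 62.4% of the Gli sum in P1 pHes1_EPCs and 21.1% in P4 pHes1_EPCs, and Gli3 takes 24.6% and 54.7%.

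Between P1 and P4 the members parted. In pHes1_EPCs, Gli1, Hhip and Ptch1 were more than 2-fold lower at P4, 3 of 9 genes where 2.57% of all genes and 4.57% of expressed genes were. None was more than 2-fold higher, where 4.17% of all genes and 7.43% of expressed genes were. The pathway is known to induce these 3 genes, and its part in their levels here was not tested. Gli1 was 10.9 times as high at P1 as at P4 (9.80 to 12.5), Hhip 4.52 times (3.91 to 5.25) and Ptch1 2.83 times (2.46 to 3.19). Of 7502 genes with an FPKM of 10 or more in either pHes1_EPC library, 6 had a more negative difference than Gli1, 59 than Hhip and 146 than Ptch1. Gli1 and Hhip passed this filter through the P1 library alone, which favours a fall, so their ranks are a description only. Gli2 was 1.99 times (1.75 to 2.24) and Gli3 1.66 times (1.54 to 1.79) as high at P1, Gas1 1.22 times (1.14 to 1.29) and Smo 1.11 times, whereas Cdon was higher at P4. Gli2 passed 2-fold under each of 3 other scalings of the libraries, with log2 differences of -1.04 to -1.29, and Gli3 under 1 of them, with -1.05. The same scalings moved Gas1 from -0.29 to between -0.46 and -0.67, and made the rise of Cdon smaller.

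In pHes1_ENCs, Gli1, Gli2, Gas1, Hhip and Gli3 were more than 2-fold lower at P4, 5 of 9 genes against 5.94% of all genes and 10.5% of expressed genes. Again none was higher, against 2.77% and 4.88%. Gli1 was 40.0 times as high at P1 as at P4 (26.2 to 73.6), Hhip 16.5 times (10.8 to 27.8), Gli2 8.03 times (6.04 to 11.1), Gas1 3.36 times (2.79 to 3.92) and Gli3 3.10 times (2.65 to 3.65). Smo was 1.75 times as high at P1 (1.52 to 1.97), while Ptch1 was 1.17 times (1.00 to 1.37) and Cdon 1.07 times (0.965 to 1.17). Ptch1 therefore differed from Gli1 and Hhip in pHes1_ENCs, where its level at P4 was close to that at P1, and the FPKM of Ptch1 in P4 pHes1_ENCs was 38.2 times that of Gli1. The fraction and age comparisons use the same 4 libraries and are not independent of each other. Over the same interval the summed progenitor markers in P4 libraries were 0.575 times their P1 value in pHes1_EPCs and 0.216 times in pHes1_ENCs, and the summed rod markers 18.6 and 5.91 times.

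**Figure D3:**
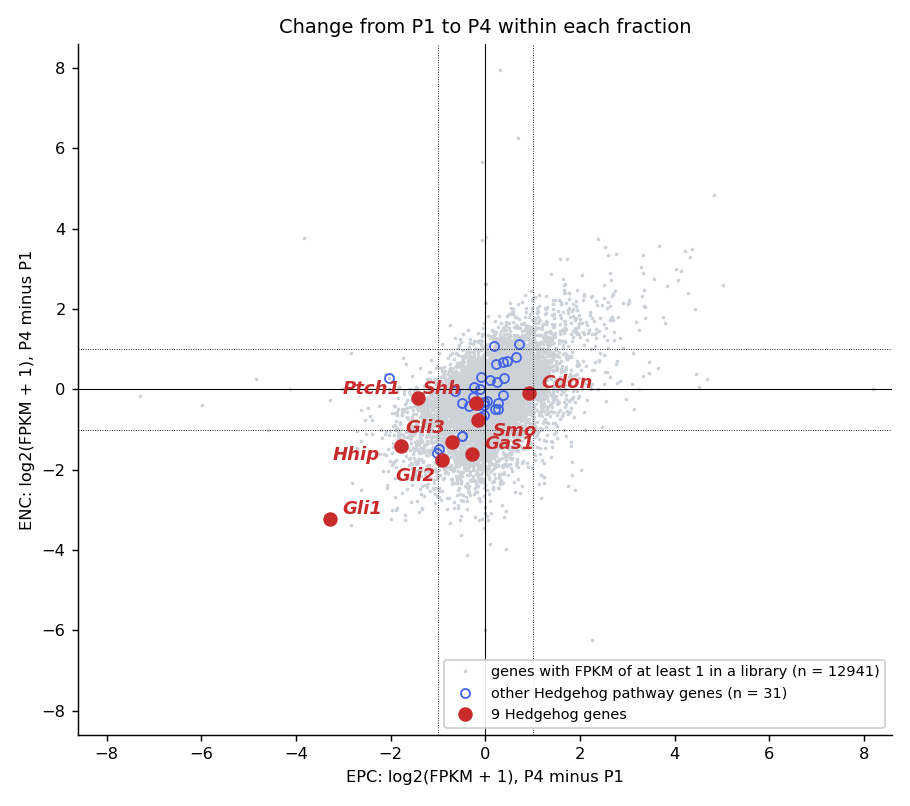
Change from P1 to P4 in log2(FPKM + 1), in pHes1_EPCs (horizontal axis) and pHes1_ENCs (vertical axis), for the 9 Hedgehog genes (red), 31 other pathway genes (blue circles) and 12941 genes that reached an FPKM of 1 in any library (grey), with dotted lines at 2-fold. Gli1 lies far to the lower left at -3.28 and -3.23, Ptch1 is low on the horizontal axis only (-1.42 and -0.21), and Cdon is the single red point to the right of 0 (0.92 and -0.09).

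**Figure D4:**
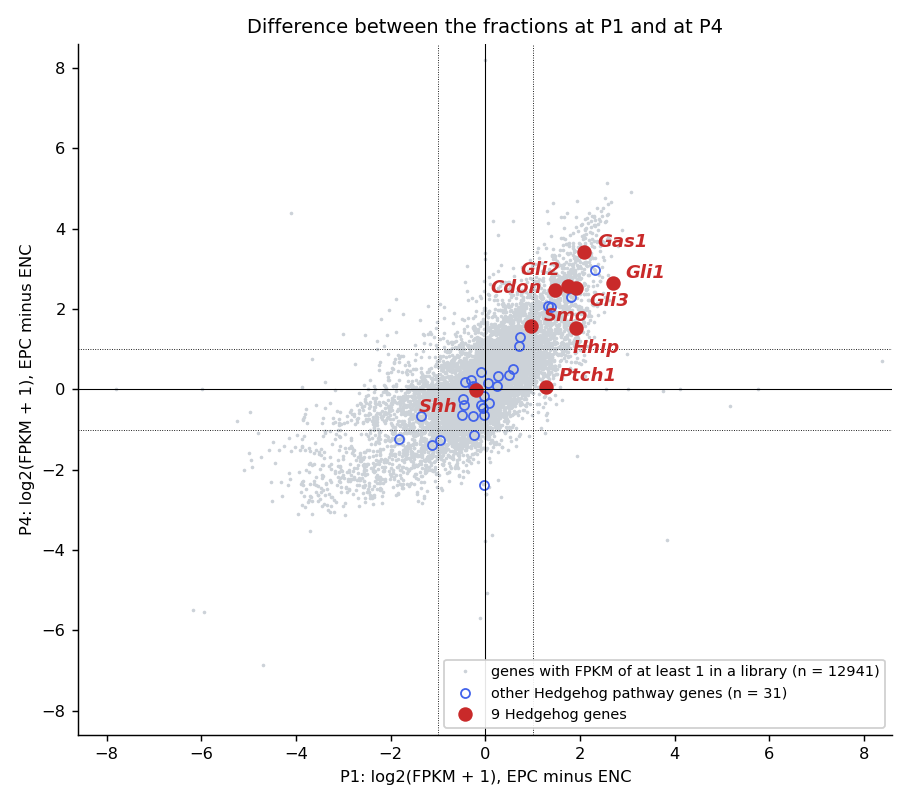
Difference in log2(FPKM + 1), pHes1_EPC (EPC) minus pHes1_ENC (ENC), at P1 (horizontal axis) and P4 (vertical axis), with symbols as for the change with age. Gli1 lies at 2.70 and 2.65, Gas1 at 2.09 and 3.42, and Ptch1 at 1.28 and 0.07, where the P4 value changes sign with some scalings of the libraries.

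Promoter sequences are shown for Ptch1 and Hhip, as targets of the pathway, for Cdon, whose level was highest at P4, and for Gli2, which had the only motif match. They are the 250 bases before the annotated start in RefSeq (GRCm38.p6, another build than that of the gene tables). The promoter table used here held 7 of the 9 genes, and the promoters of Shh and Gli1 were not analysed here. The consensus GACCACCCA, which Gli proteins bind, and its core ACCACCC were searched on both strands, and the core is part of the consensus. The consensus was in 0.225% of 32851 promoter windows of this length and in none of the 7, and the core was in 3.92% of the windows and in Gli2. Capitals mark that match, GGGTGGT on the strand shown, from -205 to -199 bases of the start. Whether these starts are the ones used in these cells was not tested.
Ptch1 (GRCm38.p6 chr13:63565736-63565985, minus strand): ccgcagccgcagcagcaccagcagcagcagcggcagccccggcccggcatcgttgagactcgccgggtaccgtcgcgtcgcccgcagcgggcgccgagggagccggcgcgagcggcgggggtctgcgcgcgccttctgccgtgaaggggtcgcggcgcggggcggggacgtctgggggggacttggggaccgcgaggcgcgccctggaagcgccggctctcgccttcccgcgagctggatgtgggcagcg
Hhip (GRCm38.p6 chr8:80058009-80058258, minus strand): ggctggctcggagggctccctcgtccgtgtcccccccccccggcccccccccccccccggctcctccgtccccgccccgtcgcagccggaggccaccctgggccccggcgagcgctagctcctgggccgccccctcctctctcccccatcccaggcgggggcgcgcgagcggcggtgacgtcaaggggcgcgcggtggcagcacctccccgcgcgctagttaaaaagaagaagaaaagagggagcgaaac
Gli2 (GRCm38.p6 chr1:119053620-119053869, minus strand): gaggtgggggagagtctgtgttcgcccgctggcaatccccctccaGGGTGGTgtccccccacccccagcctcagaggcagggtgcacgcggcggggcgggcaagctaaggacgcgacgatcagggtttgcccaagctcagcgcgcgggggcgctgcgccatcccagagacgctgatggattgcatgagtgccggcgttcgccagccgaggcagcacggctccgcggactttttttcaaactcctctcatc
Cdon (GRCm38.p6 chr9:35451826-35452075, plus strand): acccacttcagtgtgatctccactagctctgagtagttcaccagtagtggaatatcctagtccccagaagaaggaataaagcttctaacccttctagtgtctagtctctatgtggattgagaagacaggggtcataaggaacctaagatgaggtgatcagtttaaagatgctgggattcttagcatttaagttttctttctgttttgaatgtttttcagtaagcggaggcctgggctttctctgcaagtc

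The Cdon window differs in base content from the other 6. It holds 1 CpG and 42.8% G or C, whereas the other 6 hold 10 to 41 CpG and 58.8% to 78.4% G or C, and the median over all windows was 6 CpG and 52.4%. Ptch1, with 41 CpG, was at the upper end.

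The patterns most like Gli1 and Ptch1 were sought among the 8404 genes that were strongly expressed in any library, by Euclidean distance between log2(FPKM + 1) values centred on each gene's mean over the 4 libraries. For Gli1 the nearest were Fgf15 (distance 1.05), Top2a (1.11), Uhrf1 (1.11), Mki67 (1.12) and E2f8 (1.21). Fgf15 is a growth factor made by retinal progenitors, Top2a and Mki67 are expressed in dividing cells, Uhrf1 maintains DNA methylation at replication, and E2f8 is a cell cycle transcription factor. Fgf15, for example, was at 29.8 against 186 at P1 and at 2.28 against 45.6 at P4. On the log2 scale the P4 minus P1 difference of Fgf15 was -2.0 in pHes1_EPCs, against -3.28 for Gli1, and -3.23 in pHes1_ENCs, as for Gli1. Of the other members in that pool, Hhip was nearest to Gli1, at rank 111 with a distance of 1.91, and Cdon the farthest, at rank 1646. For Ptch1 the nearest were Wdr90 (0.20), Cep135 (0.21), Hist1h2ak (0.21), Nup210 (0.23) and Nup155 (0.23), and Gli1 ranked 7990. Searched from Gli1, the same distance of 3.21 put Ptch1 at rank 768. The distance is not scaled for how much a gene varies, so these ranks also reflect the size of the changes. Hist1h2ak belongs to a family of near-identical histone genes, so its level is uncertain. With 4 libraries such likeness is a description only. Shh was too low to be searched.

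Other genes of the pathway, 31 in all, were not higher in pHes1_EPCs as a group. At P1, 4 were more than 2-fold higher, where 6.1% of all genes were, and 3 lower, where 6.79% were. At P4, 6 were higher, where 9.85% of all genes were, and 5 lower, where 5.42% were. Among expressed genes, 10.6% were higher and 11.8% lower at P1, and 17.4% and 9.56% at P4. The median difference of the 31 genes was -0.06 at P1 and 0.06 at P4. The 4 that were higher at P1 were also higher at P4, namely Gpc3, Tulp3, which takes membrane proteins into cilia, and Evc and Evc2, which bind Smo at the base of the cilium. For Tulp3 the FPKM was 16.4 in pHes1_ENCs against 42.8 in pHes1_EPCs at P1, and 11.4 against 51.2 at P4. Evc was at 2.89 against 12.6 at P1 and at 0.392 against 5.87 at P4, and Evc2 at 2.52 against 8.19 and at 0.573 against 5.53. Boc and Kif7, a ciliary kinesin that regulates Gli proteins, joined them at P4. Kif7 was at 2.29 against 4.41 at P1 and at 1.53 against 4.30 at P4.

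Lower in pHes1_EPCs at both ages were Disp2, a relative of the ligand release protein Disp1, and Ulk3, a kinase that acts on Gli proteins. Disp2 was at 4.29 in pHes1_ENCs against 0.498 in pHes1_EPCs at P1, and at 2.28 against 0.401 at P4. Ulk3 was at 11.1 against 4.54 at P1 and at 18.7 against 6.55 at P4. Scube1, a secreted protein of the Scube family, was at 2.41 against 0.320 at P1 and at 1.42 against 0.518 at P4. Its log2 difference passed 2-fold at P1 (-1.37) but not at P4 (-0.67), where the plain FPKM ratio of pHes1_ENCs to pHes1_EPCs was 2.74 (2.02 to 3.82). At P4 Scube3 had the most negative difference of the 31 genes, -2.37. It was at 11.7 against 11.3 at P1 and at 14.5 against 2.01 at P4. Arl13b, a ciliary GTPase, was at 7.82 against 6.44 at P1 and at 17.6 against 7.42 at P4. Btrc, a ubiquitin ligase subunit that recognizes Gli proteins, was at 17.9 against 8.79 at P1 and at 29.5 against 11.7 at P4. Sufu, the main cytoplasmic inhibitor of Gli proteins, was nearly level at P1, with 13.0 and 12.7, and was at 12.5 and 7.71 at P4.

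**Figure D5:**
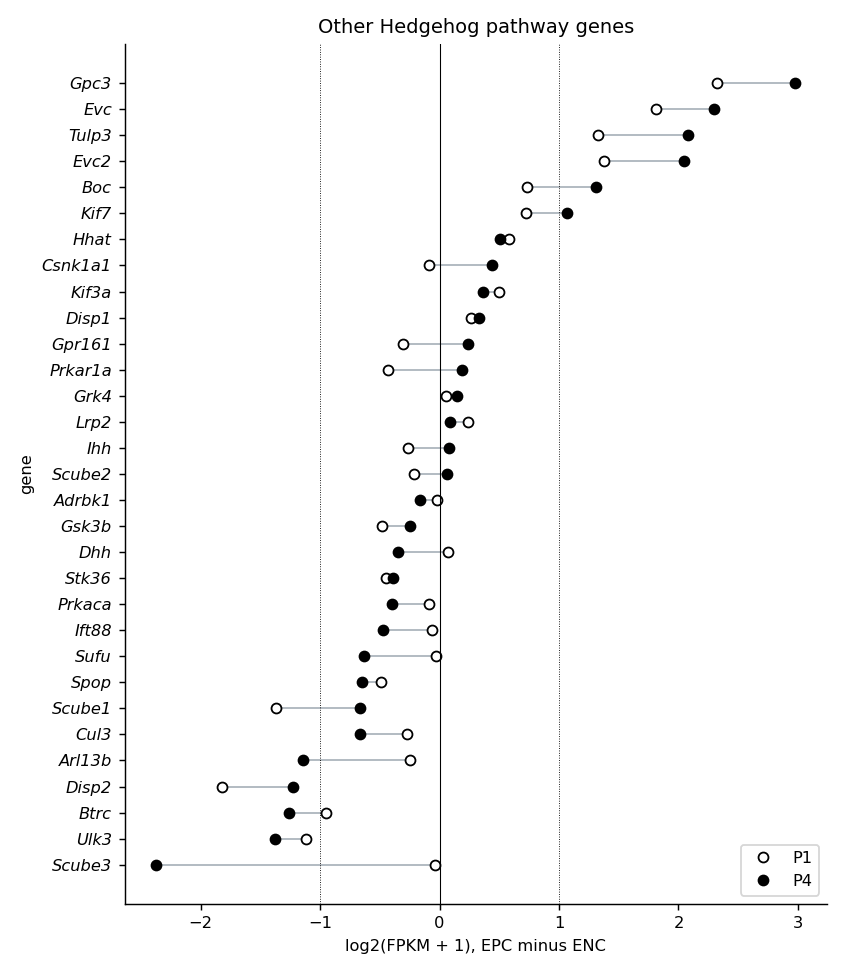
Difference in log2(FPKM + 1), pHes1_EPC (EPC) minus pHes1_ENC (ENC), for the 31 other Hedgehog pathway genes (vertical axis, ordered by the P4 value), with open circles for P1, filled circles for P4 and dotted lines at 2-fold. Gpc3 is at the top with 2.32 and 2.98, and Scube3 at the bottom with -0.04 and -2.37.

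With age, 2 of these 31 genes, Scube3 and Gpr161, were more than 2-fold lower at P4 in pHes1_EPCs and none was higher. Of all genes, 2.57% were lower and 4.17% higher, and of expressed genes 4.57% and 7.43%. Gpr161, a ciliary receptor that restrains the pathway, was at 4.45 in P1 and 1.68 in P4 pHes1_EPCs, and at 5.77 and 1.27 in pHes1_ENCs. In pHes1_ENCs 4 were lower, namely Gpr161, Evc, Evc2 and Gpc3, and 2 were higher, Dhh and Arl13b. There 5.94% of all genes were lower and 2.77% higher, and of expressed genes 10.5% and 4.88%.

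Genes known as Hedgehog targets in various tissues, 8 in a list that was not made for the retina, gave a mixed picture. At P1 Hes1, Ccnd1, Foxm1, Cdk6, Sfrp1 and Bcl2 were more than 2-fold higher in pHes1_EPCs, 6 of 8. At that age 6.1% of all genes and 10.6% of expressed genes were. At P4 all of these but Cdk6 were, 5 of 8, against 9.85% of all genes and 17.4% of expressed genes. Hes1 is the gene whose promoter drives the sorted reporter, so its difference follows from the sort. Ccnd1 is also on the progenitor marker list. Ccnd1, which encodes cyclin D1, was at an FPKM of 243 in pHes1_ENCs against 1406 in pHes1_EPCs at P1, and of 28.5 against 532 at P4. Foxm1, a transcription factor of mitotic genes, was at 17.6 against 70.5 at P1 and at 2.13 against 20.0 at P4. Cdk6, the kinase partner of D cyclins, was at 2.36 against 9.38 at P1 and at 1.39 against 1.90 at P4, so that like Ptch1 its difference between the fractions was smaller at P4. Sfrp1, a secreted Wnt inhibitor, was at 2.51 against 7.99 at P1 and at 0.324 against 5.0 at P4, and Bcl2, an inhibitor of apoptosis, at 1.71 against 5.13 and at 0.483 against 3.35. Mycn, which Shh induces in cerebellar progenitors, was lower in pHes1_EPCs at both ages, with 70.8 and 40.5 at P1 and 67.0 and 51.8 at P4, but by less than 2-fold. In pHes1_EPCs, Cdk6, Foxm1 and Ccnd1 were more than 2-fold lower at P4, where 2.57% of all genes and 4.57% of expressed genes were. In pHes1_ENCs, Ccnd1, Foxm1, Hes1 and Sfrp1 were, 4 of 8, against 5.94% of all genes and 10.5% of expressed genes.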

How the data were processed

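Total RNA of sorted retinal cells was sequenced as single-end reads. Per the labels and methods the authors aligned them to NCBI37/mm9 with TopHat 2.0.8b, which kept multiply mapped reads, and deposited gene FPKM with 95% intervals from Cufflinks 2.1.1. Reads shared between genes are divided by that model. Library preparation is not described as stranded. FPKM were used as deposited.

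Of 23021 lines per table, 787 with small RNA symbols were left out. Where a symbol had several lines (235 symbols), its most highly expressed one stood for it, giving 21828 genes. All 36 values of the 9 genes had status OK. The mapped read number per library is not in the tables, so precision is given by the Cufflinks intervals.

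Differences used a pseudocount of 1. No test was run, since each group had 1 library. Gene ranges come from the interval bounds (lower over upper, upper over lower). Named were the 9 genes, other pathway genes and general target genes past 2-fold, the ligands, Boc and Sufu, at most 4 genes per marker list, and the 5 nearest patterns. Outside this rule, Mycn, Csnk1a1, Prkar1a and markers listed at 0 were named after their values were seen. A further pathway gene is not reported here. The genes and lists were chosen with earlier results of these data known. Alternatives were other pseudocounts, an FPKM minimum, 3 library scalings, intervals that do not overlap, small RNAs kept and lines summed. The code for calls and nearest patterns was checked on simulated data with counting noise alone, which says nothing about variation between mice or sorts. Computations used Python 3.11.15, numpy 2.4.6, pandas 2.3.3 and matplotlib 3.10.9.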

Additional observations from a re-analysis of the deposited data

Results flagged for a closer look

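Several pathway genes moved in opposite directions between P1 and P4 in the fractions, with intervals that did not overlap in either, and none of these differences was tested. On the log2(FPKM + 1) scale, P4 minus P1 was -2.03 in pHes1_EPCs and 0.29 in pHes1_ENCs for Scube3. It was 0.2 and -0.49 for Scube1, 0.26 and -0.49 for Tulp3, 0.37 and -0.15 for Csnk1a1, and 0.27 and -0.34 for Prkar1a. Between the fractions, pHes1_EPC minus pHes1_ENC was -0.43 at P1 and 0.19 at P4 for Prkar1a. Apart from Scube3 in pHes1_EPCs, these values are below 2-fold. The median of expressed genes was 0.19 for the age difference in pHes1_EPCs and 0.17 for the P4 difference between the fractions, so values of that size equal the shift of all genes. Prkar1a and Csnk1a1 lay above their own Cufflinks interval in each library, and Tulp3 did in both pHes1_EPC libraries. Per library, 9.06% to 10.4% of gene lines lay outside their own interval. Intervals that do not overlap are therefore weak support for these genes.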

How the results depend on the processing

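No paired analysis was possible because each group has 1 library, which also leaves no library to omit. The number of the 9 genes more than 2-fold higher in pHes1_EPCs was within 1.5 times its value under each alternative run, as were the counts for the other pathway genes and the age count in pHes1_ENCs. The median difference of the 9 genes moved from 1.74 at P1 to 1.94 with a pseudocount of 0.1 and to 1.97 without a pseudocount, and from 2.48 at P4 to 2.91 and 2.96. Median-of-ratios scaling gave 2.28 and quantile normalization 2.18 at P4. Rescaling to the same total raised the count of genes past 2-fold with age in pHes1_EPCs from 3 to 5, by adding Gli2 and Gli3. That rescaling also multiplied FPKM by 2.69 to 3.6, so a pseudocount of 1 weighed less. It shifted the median P4 difference of expressed genes from 0.17 to -0.11 and their age difference in pHes1_EPCs from 0.19 to -0.13. Among the differences of the 9 genes only that of Ptch1 at P4 changed sign, in 3 of 7 settings. For Shh, at an FPKM of 0.295 or less, the intervals of the fractions overlapped at both ages.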
